A study of Mus musculus with 12 samples.

Results

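The genes of the Hist1 cluster encode the replication-dependent histones of mouse chromosome 13. Every entry of the deposited table whose symbol starts with Hist1h was taken, which gave 54 of 23235 genes. By symbol they are 6 linker histone H1 genes, 13 H2a genes, 15 H2b genes, 9 H3 genes and 11 H4 genes. The tissue was the oocyte at day 14, from wild-type (WT) mice or mice labelled Mtr4-null, with nucleus and cytoplasm taken apart by micromanipulation and 10 nuclei or 10 cytoplasms pooled per library. The 4 groups were WT nucleus, WT cytoplasm, Mtr4-null nucleus and Mtr4-null cytoplasm, with 3 libraries each. The labels name no Mtr4 allele, no driver of a deletion and no strain. The design text speaks of duplicates, and no label says whether libraries of 1 group stem from different mice. The p-values therefore speak only to the spread among libraries, which may be technical.

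MTR4 is a helicase that feeds RNA into the nuclear exosome, a complex with 3' to 5' RNA-degrading activity. Replication-dependent histone genes have no introns, and their mRNAs end in a conserved stem-loop in place of a poly(A) tail. The stem-loop binding protein SLBP and the U7 small nuclear RNP direct the cut after this stem-loop, and in dividing cells the mRNAs are made in S phase and destroyed at its end. Growing oocytes are arrested in meiotic prophase and do not copy their DNA, yet they store histone mRNA and protein for the embryo. Because rRNA-depleted total RNA was sequenced, mRNAs without a poly(A) tail could be measured.

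The stem-loops are shown because they are the shared element of these mRNAs and differ in few letters between classes. A search for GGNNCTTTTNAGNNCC in the transcripts of GENCODE M21, an annotation of build GRCm38, found the element in 35 of the 54 members, 25 of 38 that entered the tests and 10 of 16 that did not. The capitals mark the loop. The first form was found in 20 members of the H1, H2a, H2b and H3 classes, among them Hist1h1c, Hist1h2bh, Hist1h2bj and Hist1h3a. The next form was found in 6 members, Hist1h1t, Hist1h2bb, Hist1h2bk, Hist1h3c, Hist1h3e and Hist1h3f. The last 3 forms were found in H4 genes: one in 6 genes with Hist1h4c and Hist1h4h among them, one in Hist1h4i, and one in Hist1h4b and Hist1h4j. No match says only that these letters are not in the annotated transcript.
Stem-loop of 20 members: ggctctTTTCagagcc
Stem-loop of Hist1h3e, Hist1h3f and others: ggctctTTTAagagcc
Stem-loop of Hist1h4c, Hist1h4h and others: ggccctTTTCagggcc
Stem-loop of Hist1h4i: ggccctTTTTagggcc
Stem-loop of Hist1h4b and Hist1h4j: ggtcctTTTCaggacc

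Promoter windows (250 bases before to 50 after the start, RefSeq, GRCm38.p6) were found for 51 members, and 4 are shown for genes whose levels stand apart in the results. Hist1h1a (chr13:23763418-23763717, plus strand) was the most abundant linker histone gene, Hist1h1c (chr13:23738557-23738856, plus strand) a less abundant one, and Hist1h1t (chr13:23695561-23695860, plus strand) the one member with more RNA in WT nuclei than in WT cytoplasms by the test. The window of Hist1h2aa (chr13:23934187-23934486, plus strand) covers most of the stretch between the starts of Hist1h2aa and Hist1h2ba, which point away from each other 281 bases apart, and the first 50 bases of Hist1h2aa. Capitals mark matches on either strand to the TATA box (TATAAA), the CCAAT box, the octamer ATTTGCAT known from H2b promoters, and the element AAACACA known from H1 promoters.
Hist1h1a: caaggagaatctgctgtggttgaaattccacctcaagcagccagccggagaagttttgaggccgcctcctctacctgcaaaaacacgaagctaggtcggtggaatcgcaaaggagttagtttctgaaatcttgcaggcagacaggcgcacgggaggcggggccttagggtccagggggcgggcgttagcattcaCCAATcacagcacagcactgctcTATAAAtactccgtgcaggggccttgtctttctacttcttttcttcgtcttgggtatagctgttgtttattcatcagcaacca
Hist1h1c: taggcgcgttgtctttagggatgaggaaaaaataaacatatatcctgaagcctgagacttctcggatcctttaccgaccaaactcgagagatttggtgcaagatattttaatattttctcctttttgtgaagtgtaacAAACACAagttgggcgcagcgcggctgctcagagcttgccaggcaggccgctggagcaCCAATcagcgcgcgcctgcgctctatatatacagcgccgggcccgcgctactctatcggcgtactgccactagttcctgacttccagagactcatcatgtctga
Hist1h1t: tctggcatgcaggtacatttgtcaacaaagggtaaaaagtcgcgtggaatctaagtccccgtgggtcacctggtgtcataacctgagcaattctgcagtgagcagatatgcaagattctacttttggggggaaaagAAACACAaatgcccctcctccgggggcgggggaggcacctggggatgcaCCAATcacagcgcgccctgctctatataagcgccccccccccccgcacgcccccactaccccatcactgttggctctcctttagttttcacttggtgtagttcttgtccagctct
Hist1h2aa: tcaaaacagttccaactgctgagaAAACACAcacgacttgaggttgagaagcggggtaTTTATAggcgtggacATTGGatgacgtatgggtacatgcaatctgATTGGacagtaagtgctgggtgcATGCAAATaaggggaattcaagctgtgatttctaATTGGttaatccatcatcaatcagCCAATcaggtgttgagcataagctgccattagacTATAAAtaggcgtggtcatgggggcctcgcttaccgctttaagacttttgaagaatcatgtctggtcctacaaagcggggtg

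TATAAA was present in 31 of the 51 windows, against 13.6% of all 32851 promoter windows of the same length. CCAAT was present in 43 windows, against 37.4% of all windows, and it was in every H1, H2a, H2b and H3 window but in 3 of 11 H4 windows. The octamer was in 5 of 13 H2a and 6 of 14 H2b windows, in 0 windows of the other classes, and in 1.74% of all windows. AAACACA was in 5 of 6 H1 windows, all but that of Hist1h1a, in 2 H2a and 2 H2b windows, and in 7.18% of all windows. Windows of H2a and H2b genes that point away from each other overlap by 220 to 279 bases. An element between their starts can thus be counted in both, as the octamer of Hist1h2aa and Hist1h2ba. These matches are a description of the letters and not of binding.

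Values are FPKM, fragments scaled to transcript length and to the mapped fragments of the library. Skiv2l2, as Mtr4 is listed here, was at 19.4 to 21.1 FPKM in WT cytoplasms and at 0.315 to 1.04 FPKM in Mtr4-null cytoplasms. In nuclei it went against one label: with 7.98 FPKM, the library labelled Mtr4-null nucleus replicate 1 exceeded the WT nuclei (2.45 to 6.06), while replicates 2 and 3 had 0.182 and 1.12. The library labelled Mtr4-null nucleus replicate 3 also stood apart: over the 54 members its Spearman correlation with Mtr4-null cytoplasm replicate 1 was 0.92, against 0.63 to 0.80 in the other nuclei, as a description of libraries that share their genes. Oocyte markers summed to 12762 to 13615 FPKM in WT cytoplasms, and granulosa cell markers to 122 to 141, most of it Serpine2, with Amh below 2 FPKM in every library. Hemoglobin genes were listed at 0 throughout. Granulosa cell markers were at 27.5 to 47.0 FPKM in WT nuclei and 32.9 to 120 in nuclei labelled Mtr4-null, and their part in the nuclear results was not tested.

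Depth differed between compartments. For 34 of 36 members above 0 in at least 6 libraries, the gene's value in each library was a whole multiple of a step set by the gene and the library (tolerance 0.03). In Hist1h4a, Hist1h4b, Hist1h4c, Hist1h4d, Hist1h4f and Hist1h4j, which had the same step, it was 3.77 to 4.58 FPKM in WT nuclei and 1.65 to 5.09 FPKM in those labelled Mtr4-null, but 0.421 to 0.656 FPKM in WT and 0.584 to 1.26 FPKM in Mtr4-null cytoplasms. The steps of Hist1h4h, Hist1h4i and Hist1h4m were smaller in each library. Whether a step is 1 sequenced fragment was not tested, and absolute depth is unknown. A low nuclear value thus rests on few steps, and a 0 in a nucleus allows a higher level than a 0 in a cytoplasm. Each library pooled 10 nuclei or 10 cytoplasms, so a change in all oocytes and a change in some of them cannot be told apart.

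Of the 54 members, 38 reached 1 FPKM in at least 3 of 12 libraries and were tested (5 H1, 8 H2a, 8 H2b, 7 H3 and 10 H4 genes). The other 16 did not exceed 4.15 FPKM in any library, and 6 of them (Hist1h2ad, Hist1h2ao, Hist1h2ap, Hist1h2bq, Hist1h2br and Hist1h4n) were listed at 0 in all 12. Near-identical copies make such values uncertain. In 16 members, 8 of them tested, more than 50% of the transcript's 150-base windows also occur in another member, so reads from them could be assigned to either copy. For Hist1h2ao the share was 91.5%, mostly with Hist1h2ap. For Hist1h1a, Hist1h1c, Hist1h1t, Hist1h2aa and Hist1h4d it was 0%. Abundant members also shared some windows, 26.8% in Hist1h3e (with Hist1h3f), 22.3% in Hist1h2bj and 7.6% in Hist1h4c.

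Levels were uneven along the cluster. The first 18 members in gene order, from Hist1h2bl to Hist1h2br, held 3 genes above a mean of 10 FPKM in WT cytoplasm, and the highest was Hist1h4m at 21.8 FPKM. The other 36, from Hist1h2ah to Hist1h2aa, held 20 such genes. More than 50% of windows were shared in 11 of the 18 and in 5 of the 36, so the difference in level cannot be told apart from assignment of shared reads. This division was chosen after the values were seen.

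In WT cytoplasm the 54 genes summed to 4903 ± 1073 FPKM (SD, n = 3), and H4 genes made up the largest part. H4 genes summed to 2853, 1980 and 2105 FPKM in the 3 libraries, H1 genes to 1594, 946 and 796, H3 genes to 789, 654 and 910, H2b genes to 570, 437 and 424, and H2a genes to 328, 160 and 162. In each of these libraries H4 was highest and H2a lowest. H4 genes held 46.5 to 47.9% of the Hist1 sum, while H1 genes held 18.1 to 26.0%.

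**Figure D1:**
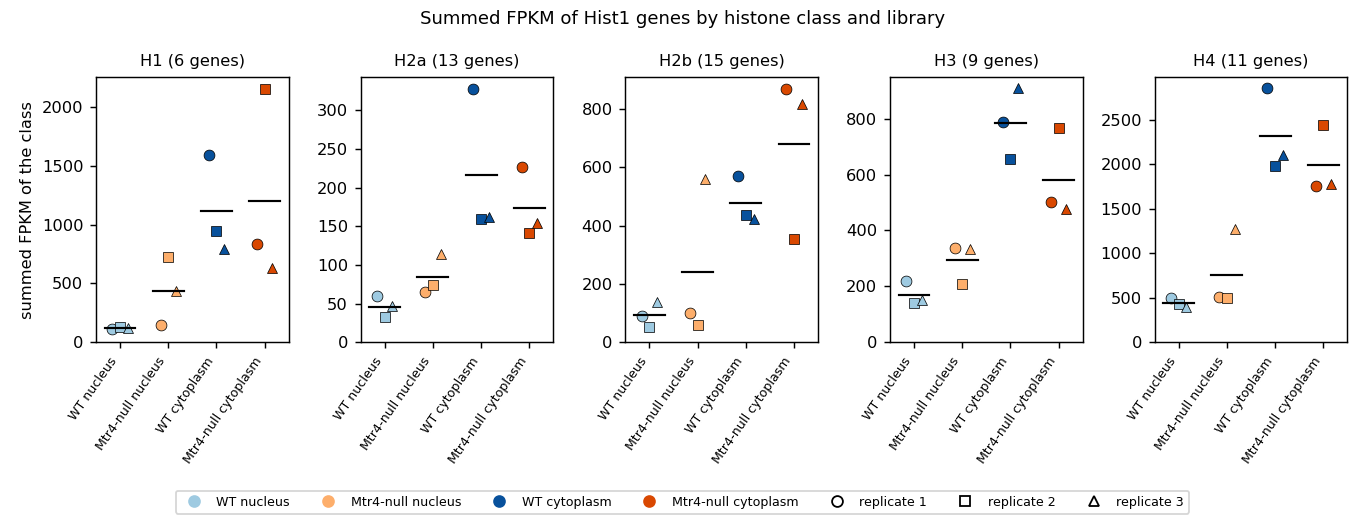
Summed FPKM of the Hist1 genes of each histone class (vertical axis, one scale per class) in each of the 12 libraries, with symbols for replicates and a line for the mean of 3. WT nuclei lie lowest in every class by their mean, and the H4 sums of WT cytoplasms reach 1980 to 2853 FPKM.

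Few genes carried each class. Hist1h1a, the gene of the H1.1 subtype, gave 97.9 to 98.4% of H1 FPKM in WT cytoplasm. It was at 1563, 931 and 779 FPKM there, and all other H1 members stayed at or below 21.1 FPKM. Hist1h2aa and Hist1h2ba, whose products TH2A and TH2B are known from testis and oocytes, led their classes with 81.5 to 90.3% of H2a and 54.2 to 61.7% of H2b. Hist1h2aa was at 296, 143 and 132 FPKM and Hist1h2ba at 344, 269 and 230. Both were high in WT cytoplasm replicate 1.

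The H3 and H4 classes had several abundant genes. Hist1h3e, an H3 gene, was at 354, 337 and 567 FPKM in WT cytoplasm, and Hist1h3f at 291, 224 and 221. Hist1h4c, the most abundant H4 gene, was at 1125, 842 and 907 FPKM. Hist1h4a (416 ± 137 FPKM), Hist1h4i (344 ± 114) and Hist1h4h (235 ± 89.9) came next among H4 genes. By mean the order over all members began with Hist1h1a, Hist1h4c, Hist1h3e, Hist1h4a, Hist1h4i and Hist1h2ba, and within this order the libraries of neighbours overlapped in every case but Hist1h4c and Hist1h3e.

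**Figure D2:**
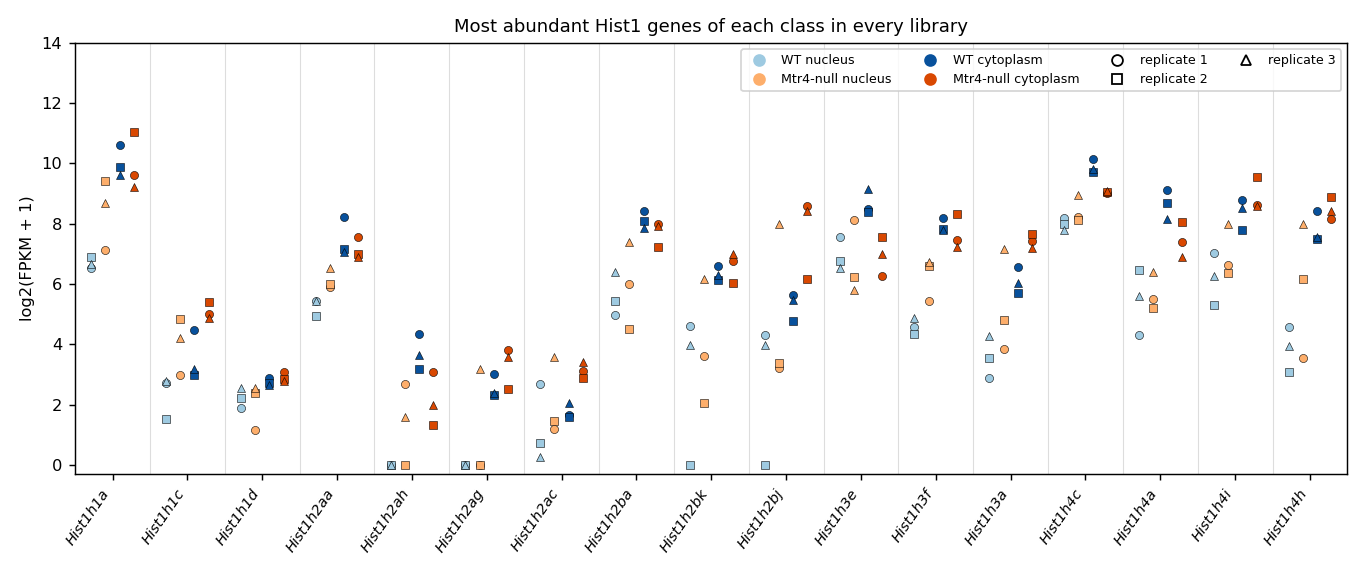
Level of the 3 most abundant members of each class in WT or Mtr4-null cytoplasm, as log2(FPKM + 1) (vertical axis), in every library, colored by group with symbols for replicates. Hist1h1a and Hist1h4c are the highest genes in WT cytoplasm, and several nuclear values lie at 0.

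Divergent pairs of H2a and H2b genes share a promoter region, and 10 such pairs were found with starts 164 to 281 bases apart. In 2 of the 3 pairs with a partner above 5 FPKM, the H2b gene was several times higher. In WT cytoplasm Hist1h2ah averaged 13.0 FPKM and its partner Hist1h2bk 81.0, and Hist1h2ag averaged 5.07 and its partner Hist1h2bj 39.5. In Mtr4-null cytoplasm the same means were 3.97 and 99.3, and 9.52 and 263. Hist1h2aa and Hist1h2ba were nearer, at 190 and 281 FPKM in WT cytoplasm and at 144 and 214 in Mtr4-null. Of the other 7 pairs, no gene exceeded a mean of 4.92 FPKM in any group.

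The question of the first comparison was which members differ between Mtr4-null and WT cytoplasm. None of the 38 tested members was called by limma on log2(FPKM + 1) over all 12 libraries, with Benjamini-Hochberg adjustment over 13157 genes and a threshold of 0.05, where 1.88% of all genes were called. At an unadjusted p below 0.05 there were 8 members, against 12.6% of all genes, 2 with a higher and 6 with a lower mean in Mtr4-null. The median log2 difference of the 38 was 0.20, against 0.00 over all tested genes. A limma fit of the 6 cytoplasm libraries alone called 5 members higher and 4 lower, where 13.3% and 9.85% of all genes were called, and 23.2% in either direction, against 9 of 38 members, a share near the background. With nuclei 1 and 3 labelled Mtr4-null taken out of the shared spread, 7 members were called, against 10.4% of all genes. The groups did not overlap in 7 members that were higher and 7 that were lower, against 23.0% and 20.9% of all genes.

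**Figure D3:**
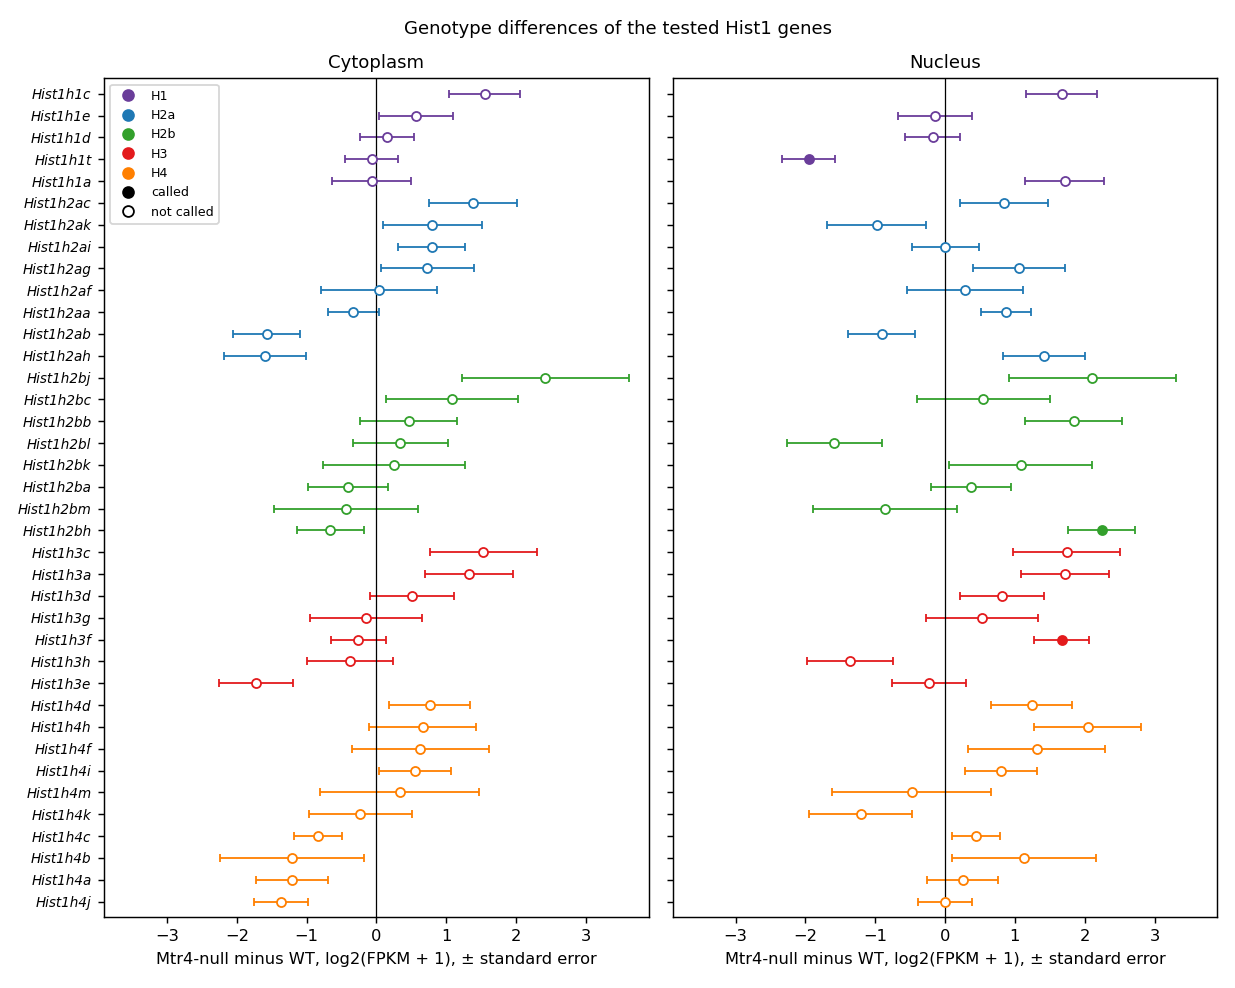
Mtr4-null minus WT difference on the log2(FPKM + 1) scale (horizontal axis) with its standard error for the 38 tested members, in cytoplasm (left) and nucleus (right), colored by class. Filled points were called in the fit of 12 libraries: 0 in the cytoplasm and 3 in the nucleus (Hist1h2bh, Hist1h3f and Hist1h1t).

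The summed levels of the classes overlapped between genotypes in the cytoplasm. H4 genes summed to 1758, 2442 and 1772 FPKM in Mtr4-null cytoplasms (1991 ± 391, against 2313 ± 472 in WT), H1 genes to 832, 2152 and 630, H3 genes to 501, 767 and 475, H2b genes to 868, 353 and 816, and H2a genes to 226, 141 and 154. Mtr4-null cytoplasm replicate 2 held the highest H1, H3 and H4 sums and the lowest H2a and H2b sums of its group. The whole cluster summed to 4628 ± 1075 FPKM, against 4903 ± 1073 in WT.

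Among H1 genes, Hist1h1c, the gene of the H1.2 subtype, was at 21.1, 6.87 and 8.16 FPKM in WT and 31.2, 41.4 and 28.5 in Mtr4-null cytoplasms. All Mtr4-null libraries lay above the WT libraries. The log2 difference was 1.55 ± 0.51 (SE, limma adjusted p = 0.15, and 0.042 in the fit of the cytoplasms alone). Hist1h1a was at 788, 2099 and 592 FPKM in Mtr4-null cytoplasms, which overlapped WT (log2 difference -0.07 ± 0.57, limma adjusted p = 1). Hist1h1d, for H1.3, averaged 5.74 and 6.50 FPKM in WT and Mtr4-null cytoplasm, and Hist1h1e, for H1.4, averaged 2.64 and 4.47. Hist1h1t had 0, 0 and 0.145 FPKM in WT and 0 in all Mtr4-null cytoplasms. Hist1h1b, for H1.5, did not exceed 0.938 FPKM in any library and was not tested.

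Among H2a genes, Hist1h2ac was at 2.13, 2.02 and 3.13 FPKM in WT and 7.69, 6.36 and 9.68 in Mtr4-null cytoplasms, without overlap. Its log2 difference was 1.38 ± 0.63 (limma adjusted p = 0.38, and 0.0088 with the cytoplasms alone). Hist1h2ah was lower, with 19.4, 8.15 and 11.5 FPKM in WT and 7.42, 1.53 and 2.96 in Mtr4-null (limma adjusted p = 0.21, and 0.071 with the cytoplasms alone). Since 84.8% of the windows of Hist1h2ah occur in another member, mostly Hist1h2ad, its value is uncertain. Hist1h2ab was at 0.241, 2.47 and 5.11 FPKM in WT cytoplasms and listed at 0 in the Mtr4-null cytoplasms and in all nuclei labelled Mtr4-null. Hist1h2aa did not separate the genotypes (187, 128 and 117 FPKM in Mtr4-null cytoplasms, limma adjusted p = 0.88).

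Among H2b genes, Hist1h2bj had the largest difference of all tested members on the log2(FPKM + 1) scale. Its WT cytoplasms held 48.8, 26.3 and 43.3 FPKM, and its Mtr4-null cytoplasms 380, 70.2 and 340. All Mtr4-null libraries were above WT, with replicate 2 near the WT range. The log2 difference was 2.42 ± 1.19 (limma adjusted p = 0.43, and 0.050 with the cytoplasms alone). Hist1h2bc rose in that smaller fit from 27.0 ± 4.60 to 57.9 ± 9.60 FPKM (log2 difference 1.08 ± 0.17, limma adjusted p = 0.011, and 0.81 with all libraries). Hist1h2bh was at 32.4, 32.1 and 22.4 FPKM in WT and 19.3, 15.8 and 18.4 in Mtr4-null cytoplasms, lower without overlap (log2 difference -0.66, limma adjusted p = 0.71, and 0.042 with the cytoplasms alone). Hist1h2ba overlapped (230 to 344 FPKM in WT, 255, 148 and 239 in Mtr4-null), as did Hist1h2bk (95.1, 69.7 and 78.2 FPKM in WT, 108, 63.9 and 126 in Mtr4-null).

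Among H3 genes, Hist1h3e and Hist1h3a moved in opposite directions in the fit of the cytoplasms alone. Hist1h3e was at 75.9, 188 and 127 FPKM in Mtr4-null cytoplasms, all below the WT values of 337 to 567. Its log2 difference was -1.73 ± 0.53 (limma adjusted p = 0.12, and 0.024 with the cytoplasms alone). Hist1h3a was at 94.3, 50.6 and 64.1 FPKM in WT and 171, 200 and 144 in Mtr4-null cytoplasms. Its log2 difference was 1.32 ± 0.63 (limma adjusted p = 0.40, and 0.016 with the cytoplasms alone). Hist1h3c had the highest difference of the class, from 5.79, 4.56 and 13.2 FPKM to 29.8, 12.2 and 30.7, with overlap (log2 difference 1.53). With only nucleus 1 of that label taken out, Hist1h3e was the 1 member called (limma adjusted p = 0.029), against 3.98% of all genes.

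Among H4 genes, Hist1h4c was at 518, 527 and 544 FPKM in Mtr4-null cytoplasms, all below the WT values of 842 to 1125. Its log2 difference was -0.84 ± 0.34 (limma adjusted p = 0.27, and 0.013 with the cytoplasms alone). Hist1h4b was at 172, 148 and 139 FPKM in WT and 87.0, 49.3 and 64.7 in Mtr4-null (limma adjusted p = 0.80, and 0.014 with the cytoplasms alone). Hist1h4d had the highest difference of its class, from 147 ± 21.2 to 255 ± 76.3 FPKM (log2 difference 0.76 ± 0.58, limma adjusted p = 0.73). Hist1h4j had the lowest, from 8.78 ± 3.70 to 2.87 ± 1.89 FPKM (log2 difference -1.37 ± 0.39, limma adjusted p = 0.095), and its libraries overlapped. Hist1h4h (283, 476 and 340 FPKM in Mtr4-null) and Hist1h4i (395, 746 and 383) overlapped WT.

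In the cytoplasm some members of every class had shares of their class that did not overlap between the genotypes. Hist1h1a held 97.9 to 98.4% of H1 FPKM in WT and 94.0 to 97.6% in Mtr4-null cytoplasms. Hist1h2ac held 0.648 to 1.93% of H2a FPKM in WT and 3.4 to 6.28% in Mtr4-null, while Hist1h2ah held 5.09 to 7.12% and 1.08 to 3.28%. Hist1h2ba held 54.2 to 61.7% of H2b FPKM in WT and 29.3 to 42.1% in Mtr4-null cytoplasms, while Hist1h2bj held 6.03 to 10.2% and 19.9 to 43.8%. Hist1h3e held 44.8 to 62.3% of H3 FPKM in WT and 15.2 to 26.8% in Mtr4-null, and Hist1h3a held 7.05 to 11.9% and 26.0 to 34.1%. Hist1h4c held 39.4 to 43.1% of H4 FPKM in WT and 21.6 to 30.7% in Mtr4-null. None of these ranges overlapped between genotypes. Shares within a class depend on each other, so a rise of a gene lowers the shares of the rest. In FPKM, Hist1h1a and Hist1h2ba overlapped between genotypes. The genes were chosen after their values were seen, an exact permutation test of 3 against 3 libraries cannot go below p = 0.1, and no test was made of the shares.

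The nuclei differed among themselves in this makeup. In WT nuclei Hist1h3e held 84.6, 76.4 and 60.0% of H3 FPKM and Hist1h4c 58.7, 59.2 and 55.8% of H4 FPKM. The library labelled Mtr4-null nucleus replicate 1 had 82.3% and 59.1%, within the WT nuclear ranges. Replicate 3 of that label had 16.4% for Hist1h3e and 42.9% for Hist1h3a, near the Mtr4-null cytoplasms (15.2 to 26.8% and 26.0 to 34.1%). Replicate 2 had 35.4% and 13.2%. The 3 libraries of this label thus did not share one makeup.

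**Figure D4:**
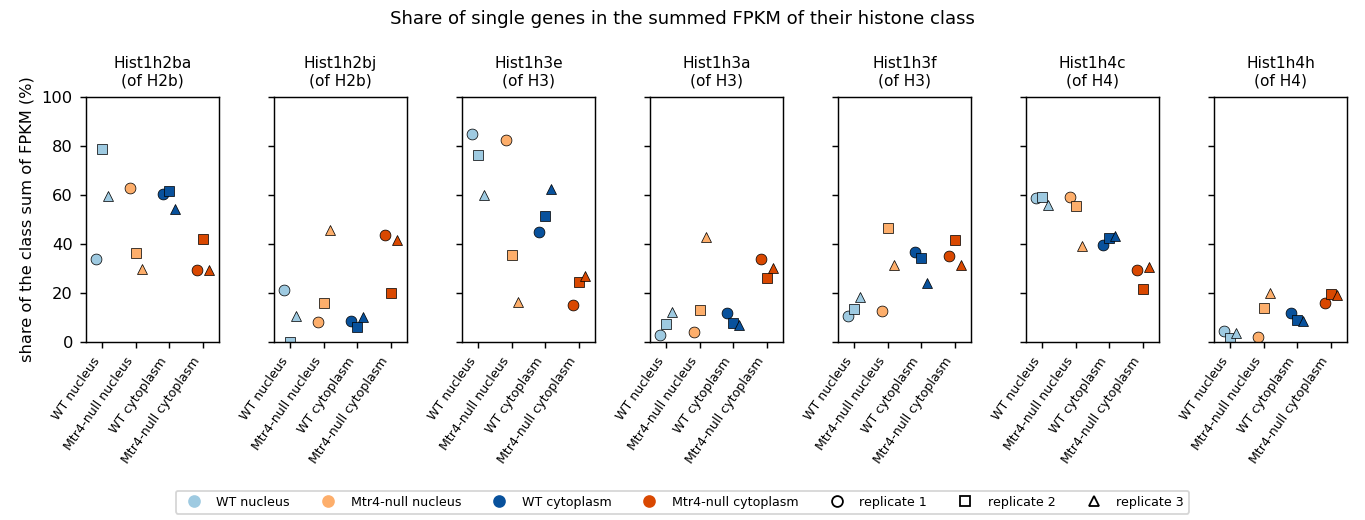
Share of 7 members in the summed FPKM of their histone class (vertical axis, percent) in each library, by group and replicate. Hist1h3e and Hist1h4c have higher shares in WT than in Mtr4-null cytoplasms, Hist1h2bj and Hist1h3a lower ones, and the nuclei labelled Mtr4-null spread from 16.4 to 82.3% for Hist1h3e.

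The second comparison asked which members differ between nuclei labelled Mtr4-null and WT nuclei. Of the 38 members, Hist1h2bh and Hist1h3f rose and Hist1h1t fell by limma over 12 libraries, where 2.26% of all genes were called, 0.517% higher and 1.75% lower. The median log2 difference of the members was 0.68, against 0.04 over all tested genes, but leaving out replicate 3 of the nuclei labelled Mtr4-null gave 0.05, where all genes had -0.28. Groups did not overlap in 5 members that were higher and 1 that was lower, against 6.22% and 6.70% of all genes. A fit of the 6 nuclei alone called 0 members (limma, 0.038% of all genes), while 14 had an unadjusted p below 0.05 in the fit of 12 libraries, against 18.3% of all genes.

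Hist1h3f, an H3 gene, had 23.0, 19.1 and 28.0 FPKM in WT nuclei, against 42.8, 96.7 and 104 in nuclei labelled Mtr4-null. All 3 of the latter were above WT, the lowest being replicate 1. The log2 difference was 1.67 ± 0.39 (limma adjusted p = 0.038, and 0.42 with the nuclei alone). With the doubted replicate 1 left out, the adjusted p by limma was 0.0046. These values correspond to 44, 30 and 51 steps in WT nuclei and to 69, 137 and 457 in those labelled Mtr4-null.

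Hist1h2bh, an H2b gene, was listed at 0, 0 and 2.48 FPKM in WT nuclei, and nuclei labelled Mtr4-null held 8.38, 3.18 and 8.25. The log2 difference was 2.24 ± 0.48 (limma adjusted p = 0.024, and 0.38 with the nuclei alone). These values are 0, 0 and 1 steps in WT nuclei, and 3, 1 and 8 steps in those labelled Mtr4-null, so the call rests on few steps in each library and no fold is given.

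Hist1h1t, the gene of the testis-specific linker histone H1t, gave 9.45, 3.58 and 3.72 FPKM in WT nuclei, while nuclei labelled Mtr4-null gave 0, 1.59 and 0.516. The groups did not overlap. The log2 difference was -1.95 ± 0.38 (limma adjusted p = 0.017, and 0.42 with the nuclei alone). With replicate 1 left out, the adjusted p by limma was 0.016. It had 16, 5 and 6 steps in WT nuclei and 0, 2 and 2 in those labelled Mtr4-null. No window of 150 bases of this gene is shared with another member. It entered the tests only because all WT nuclei, the group where it was high, reached 1 FPKM. Its call must be read with that limit.

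Other members did not pass the test, and their differences had both signs. Hist1h3e had 186, 108 and 91.1 FPKM in WT nuclei against 278, 73.5 and 54.7 under the Mtr4-null label (log2 difference -0.23 ± 0.53, limma adjusted p = 0.87). Hist1h1a had 91.6, 118 and 101 FPKM in WT nuclei, against 138, 689 and 408 in those labelled Mtr4-null, above WT in all 3 (log2 difference 1.71 ± 0.57, limma adjusted p = 0.12). Hist1h1c was at 5.54, 1.87 and 5.82 FPKM and at 6.94, 27.4 and 17.4 (log2 difference 1.67 ± 0.51, limma adjusted p = 0.092). In Hist1h1a and Hist1h1c replicate 1 of the label lay nearest to WT. Hist1h2aa was at 42.7, 30.0 and 42.4 FPKM and at 58.5, 63.6 and 92.3 (limma adjusted p = 0.22). Hist1h4h, with 22.9, 7.41 and 14.4 FPKM in WT nuclei and 10.8, 70.0 and 256 in those labelled Mtr4-null, overlapped (limma adjusted p = 0.17).

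When nucleus 1 labelled Mtr4-null, whose Skiv2l2 level goes against its label, was left out, 8 members were called in place of 3, against 10.2% of all genes. Hist1h1a, Hist1h1c, Hist1h2bc, Hist1h2bh, Hist1h3a, Hist1h3f and Hist1h4h were higher and Hist1h1t lower. Without replicate 3 of that label 1 member was called, Hist1h1t, against 2.97% of all genes. Without both, 5 were called, all higher, against 30.1% of all genes: Hist1h1a, Hist1h1c, Hist1h2bc, Hist1h3f and Hist1h4h, with 1 library left in the group and its spread assumed to be like that of the other groups. Without WT nucleus replicate 1 the count of called members was 0, and without WT nucleus replicate 2 it was 1.

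Hist1h2bj gave 8.38, 9.54 and 255 FPKM in the nuclei labelled Mtr4-null against 18.9, 0 and 14.9 in WT nuclei (log2 difference 2.11 ± 1.19, limma adjusted p = 0.38). The 255 FPKM stand in replicate 3, the library nearest to the cytoplasms. Hist1h2ak (6.63, 0 and 0 FPKM in WT nuclei), Hist1h2bl (9.43, 2.86 and 2.48) and Hist1h4k (11.3, 0 and 0) had the lowest differences of their classes and were not called. Hist1h2ah had the highest of the H2a class, with 0 in all WT nuclei and values of 5.41, 0 and 1.99 FPKM under the Mtr4-null label (log2 difference 1.42). Hist1h3h, at 1.47, 3.57 and 3.09 FPKM in WT nuclei and 1.74, 0 and 0 in those labelled Mtr4-null, had the lowest difference among H3 genes (limma adjusted p = 0.26), and 90.5% of its windows occur in another member. Hist1h3c had the highest, from 2.65 ± 4.59 to 7.29 ± 5.12 FPKM (limma adjusted p = 0.25). Hist1h2af was at 8.94 FPKM in 1 nucleus labelled Mtr4-null and listed at 0 in the other 2.

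The third comparison set nucleus against cytoplasm. In WT, 22 members were lower and 1 was higher in the nucleus by limma, where 57.1% of all genes were called, 45% lower and 12% higher. Groups did not overlap in 26 members that were lower and 2 that were higher, against 59.4% and 14.1% of all genes. The median log2 difference of the 38 members was -2.19, against -0.90 over all tested genes. A small RNA, Scarna2, took 58.0 to 81.7% of summed FPKM in nuclei and 0 to 5.13% in cytoplasms. Since FPKM are scaled to transcript length, this is not its share of the fragments, which is unknown. With median-of-ratios scaling the median of all genes was 0.02 and that of the members -1.39, and 15 members were lower and 2 higher, against 9.33% and 19.4% of all genes. With quantile normalization the medians were -0.22 and -1.48, with 13 members lower and 1 higher, against 12.2% and 12.6% of all genes.

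By class, 8 of 10 tested H4 genes, 6 of 7 H3 genes, 4 of 8 H2b genes, 3 of 8 H2a genes and 1 of 5 H1 genes were lower in WT nuclei. With median-of-ratios scaling these counts were 6, 2, 3, 3 and 1, and with quantile normalization 6, 2, 2, 2 and 1. Hist1h4b had the largest difference, at 11.3, 4.58 and 0 FPKM in WT nuclei against 172, 148 and 139 in WT cytoplasms (log2 difference -5.23 ± 1.03, limma adjusted p = 0.0015). Hist1h4c was at 294, 252 and 222 FPKM in WT nuclei against 842 to 1125 in cytoplasms (-1.90 ± 0.34, limma adjusted p = 0.00085). Hist1h4h (-3.96 ± 0.77), Hist1h4f (-3.64 ± 0.98), Hist1h4j (-3.21 ± 0.39), Hist1h4a (-3.19 ± 0.51), Hist1h4d (-3.06 ± 0.58) and Hist1h4i (-2.18 ± 0.51) lay between. In WT nuclei Hist1h4j was listed at 0 throughout and Hist1h4f at 0, 0 and 11.9 FPKM, so their values are no folds. Hist1h4j reached 1 FPKM only in cytoplasms, where it was high, and its call must be read with that limit.

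Hist1h3e kept the highest nuclear level of the H3 genes, at 186, 108 and 91.1 FPKM in WT nuclei. Its log2 difference between compartments was -1.73 ± 0.53 (limma adjusted p = 0.014), and that of Hist1h3f was -3.34 ± 0.39 (limma adjusted p = 3.6e-05). Hist1h3g, at 2.90, 0 and 3.05 FPKM in nuclei and 37.9, 28.3 and 19.8 in cytoplasms, differed by -3.52 ± 0.80. Hist1h3a (-2.52), Hist1h3c (-1.97) and Hist1h3h (-1.58) were called too, with Hist1h3c listed at 0, 0 and 7.95 FPKM in WT nuclei.

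Hist1h1a was the H1 gene called lower in WT nuclei (log2 difference -3.33 ± 0.57, limma adjusted p = 0.00064). Hist1h1t was the one member called higher: it was at 3.58 to 9.45 FPKM in WT nuclei, and in WT cytoplasms it was listed at 0, 0 and 0.145 FPKM (log2 difference 2.54 ± 0.38, limma adjusted p = 0.00031). No WT nucleus and cytoplasm overlapped. Hist1h1t reached 1 FPKM in 4 libraries, all WT nuclei among them. It thus entered the tests through the group where it was high, and its call must be read with that limit. The median over the 5 tested H1 genes was -0.52, and it turned to 0.41 with median-of-ratios scaling.

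Hist1h2aa (-2.20 ± 0.36) and Hist1h2ba (-2.53 ± 0.57) were lower in WT nuclei, with 30.2, 42.3 and 82.8 FPKM of Hist1h2ba in nuclei. Hist1h2bh differed by -4.29 ± 0.48 (limma adjusted p = 2.5e-05), Hist1h2bk by -3.48 ± 1.02 and Hist1h2bb by -2.70 ± 0.69. In WT nuclei Hist1h2bb was listed at 0 throughout, Hist1h2bh at 0, 0 and 2.48 FPKM, and Hist1h2bk at 23.6, 0 and 14.9. The values of Hist1h2bb and Hist1h2bh are thus no folds. Hist1h2ah and Hist1h2ag, listed at 0 in all 3 WT nuclei, ranged from 8.15 to 19.4 and from 3.99 to 7.02 FPKM in WT cytoplasms.

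In oocytes labelled Mtr4-null, 18 members were lower and 0 higher in the nucleus, where 32.2% of all genes were called, 28.1% lower. Groups did not overlap in 17 members that were lower and 0 that were higher, against 35.8% and 5.95% of all genes. The median of the members was -1.64, against -0.82 over all genes. These calls lay close to the threshold: a fit of the 6 libraries alone called 0 members (limma, 0.935% of all genes), median-of-ratios scaling and quantile normalization called 1 each (4.92% and 3.7% of all genes), and in the fit of 12 libraries 26 members had an unadjusted p below 0.05, against 53% of all genes. Leaving out nucleus replicate 1 of that label gave 2 members (2.52% of all genes), and leaving out replicate 3 gave 26 (64.8%). Leaving out any WT cytoplasm, Mtr4-null cytoplasm or Mtr4-null nucleus replicate 2 gave 0 to 3. The sum over the cluster was 1156, 1567 and 2713 FPKM in these nuclei and 3847 to 5855 FPKM in Mtr4-null cytoplasms.

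Hist1h4d, an H4 gene, was at 22.4, 25.5 and 114 FPKM in nuclei labelled Mtr4-null and at 218, 342 and 203 in cytoplasms (log2 difference -2.59 ± 0.58, limma adjusted p = 0.023). Hist1h4j was listed at 0 in these nuclei and at 1.17, 2.53 and 4.90 FPKM in the cytoplasms (limma adjusted p = 0.018). It reached 1 FPKM in 6 libraries, all of them cytoplasms. It thus entered the tests through the compartment where it was high, and its call must be read with that limit. Hist1h3h (limma adjusted p = 0.030), Hist1h4i (0.034), Hist1h3f (0.035), Hist1h3g (0.035), Hist1h3a (0.036) and Hist1h4h (0.036) were called as well, and so were Hist1h2aa, Hist1h2ag, Hist1h2ba, Hist1h2bh, Hist1h4a, Hist1h4b and Hist1h4f. Hist1h1a was called (-1.55 ± 0.57, limma adjusted p = 0.049) although its libraries overlapped. The libraries also overlapped in the called Hist1h2ag, Hist1h2ai, Hist1h2ba and Hist1h3g. Hist1h2ai and Hist1h2ak, at adjusted p values of 0.050 by limma, were the calls nearest to the threshold. Both were listed at 0 in all nuclei labelled Mtr4-null. Hist1h2ai reached 1 FPKM in 3 libraries, all cytoplasms, and so entered the tests only through the compartment where it was high. Hist1h2ak reached it in 5 libraries, with WT nucleus replicate 1 the only nucleus among them. These calls must be read with that limit.

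**Figure D5:**
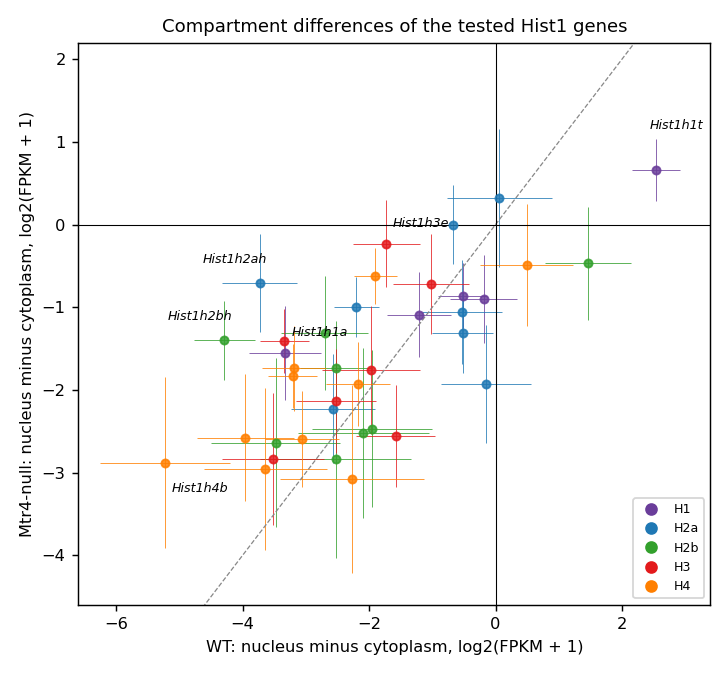
Nucleus minus cytoplasm difference on the log2(FPKM + 1) scale in WT (horizontal axis) and in oocytes labelled Mtr4-null (vertical axis) for the 38 tested members, colored by class, with standard errors and a dashed line of equal differences. Most members lie below 0 on both axes, and Hist1h1t lies at 2.54 in WT.

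The difference of the genotype effects between nucleus and cytoplasm was called in 0 of 38 members by limma (0.122% of all genes), and 8 members had an unadjusted p below 0.05, against 10% of all genes. The 4 members with the lowest p were Hist1h2ah (3.02 ± 0.83, limma adjusted p = 0.16), Hist1h2bh (2.89 ± 0.67, limma adjusted p = 0.085), Hist1h3f (1.93 ± 0.55, limma adjusted p = 0.18) and Hist1h1t (-1.88 ± 0.54, limma adjusted p = 0.19). Hist1h2ah was at 0 in all WT nuclei, so its value is no fold.

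Genes that make, process or store histones were looked at beside the members. Of 22 tested genes for histone mRNA 3' end processing and decay, 0 were called between genotypes in cytoplasm or nucleus by limma over 12 libraries. Of all genes 1.88% were called in cytoplasm and 2.26% in nucleus. In WT nuclei 15 of the 22 were lower than in cytoplasms, against 45% of all genes. Slbp, for the stem-loop binding protein, was at 450 ± 57.5 FPKM in WT and 359 ± 25.0 in Mtr4-null cytoplasm (log2 difference -0.32 ± 0.42, limma adjusted p = 0.91). Upf1, for a helicase needed for histone mRNA decay, averaged 143 and 141 FPKM. The cytoplasm fit alone called 4 of the 22 higher and 2 lower, against 13.3% and 9.85% of all genes. Of 25 DNA replication and S phase genes, 0 were called in either genotype comparison with 12 libraries. The cytoplasm fit alone had 1 higher and 6 lower, against the same shares of all genes.

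Histone genes outside the cluster gave other values. Of 11 tested replication-dependent histone genes of the other clusters, 3 fell in Mtr4-null cytoplasm by limma over 12 libraries: Hist2h2bb, Hist2h3b and Hist2h2ac. In that fit 1.88% of all genes were called in either direction. In WT cytoplasm Hist2h2bb, at 1749 FPKM, exceeded the sum of all Hist1 H2b genes (477 ± 80.9 FPKM), and in Mtr4-null cytoplasm, at 57.2 FPKM, it was below their sum of 679 ± 284. Of 14 tested replacement and variant histone genes 0 were called between genotypes with 12 libraries. The cytoplasm fit alone called 3 higher and 1 lower, against 13.3% and 9.85% of all genes. H1foo, the linker histone gene of oocytes, was at 1842 FPKM in WT and 1349 in Mtr4-null cytoplasm, beside Hist1h1a at 1091 ± 416 and 1160 ± 819. Of 18 histone chaperone genes 0 were called between genotypes with 12 libraries. The cytoplasm fit alone called 2 higher and 3 lower, against the same 13.3% and 9.85% of all genes. Npm2 was at 778 FPKM in WT cytoplasm and 638 in Mtr4-null.

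Among 11 tested non-histone genes that lie beside or within the cluster, 5 were higher and 3 lower in WT nuclei than in WT cytoplasms. Of all genes 12% were called higher and 45% lower. The median log2 difference of the 11 was 1.08, against -2.19 for the 38 members. Abt1 averaged 38.2 FPKM in WT nuclei and 9.65 in cytoplasms. Zkscan3 averaged 4.05 and 0.529 FPKM, Btn2a2 9.77 and 2.46, and Trim38 16.8 and 2.16. The 3 that were lower in nuclei were Lrrc16a, at 16.7 FPKM in nuclei and 55.3 in cytoplasms, Zfp184, at 2.13 and 7.95, and Zfp187, at 0.395 and 1.55.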

How the data were processed

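Per the labels' protocols, TRIzol-extracted total RNA was depleted of rRNA, and pairs of 150 bp reads were made. The deposited values are FPKM made by the authors, for which the submitters' processing notes name TopHat2 2.1.1, Cufflinks 2.2.1 and mm9. The sources used here give no annotation, use of strand or treatment of reads that fit several gene copies. An FPKM value is a share of a library, so an RNA that takes more of it lowers all other values.

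The 13157 genes that reached 1 FPKM in 3 or more of the 12 libraries were tested in one limma fit (limma 3.58.1, R 4.3.3) of log2(FPKM + 1), with 4 group means and variances that follow a trend. A fold of a low gene is understated on this scale. P-values are two-sided and Benjamini-Hochberg adjusted over all tested genes, and an adjusted p below 0.05 is a call. The scripts were tested on simulated data. Alternatives were a pseudocount of 0.1, no filter, the 2 groups compared alone, median-of-ratios scaling, quantile normalization, a replicate block and libraries left out.

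The members and lists were chosen with earlier results of these data known. Named were called members, the 3 most abundant of each class and group, the highest and lowest difference of each class per genotype comparison, all H1 genes, Skiv2l2, and called or else the 2 most abundant genes of other lists. Promoters came from RefSeq (GRCm38.p6), where all 54 symbols matched, and stem-loops from GENCODE M21. No coordinates of mm9 were used. The 10 lists of other genes were histone mRNA 3' end processing and decay, replication-dependent histones outside the cluster, replacement and variant histones, histone chaperones, DNA replication, non-histone neighbours, and 4 sets of markers: blood and endothelium, stroma and theca, granulosa, and oocyte. Theca and stroma markers summed to at most 1.82 FPKM in WT cytoplasms and 37.0 in WT nuclei, and blood and endothelium markers to at most 25.4 FPKM.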

Additional observations from a re-analysis of the deposited data

Results flagged for a closer look

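Hist1h2bh was higher in all 3 nuclei labelled Mtr4-null than in all WT nuclei, and lower in all 3 Mtr4-null cytoplasms than in all WT cytoplasms. The difference between these genotype effects was 2.89 ± 0.67 on the log2(FPKM + 1) scale, higher in the nucleus, with a limma adjusted p of 0.085, so it did not pass the threshold. The WT nuclear values were 0, 0 and 2.48 FPKM. That 2.48 FPKM and the 3.18 FPKM of replicate 2 labelled Mtr4-null are 1 step each, so these values differ only by the scale of their libraries. The highest nuclear value, 8.38 FPKM, is in replicate 1 of that label, whose Skiv2l2 level goes against the label.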

How the results depend on the processing

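The count of called members in the cytoplasm was 9 with the 2 groups alone, 7 without both doubted nuclei (those labelled Mtr4-null, numbers 1 and 3), and 0 to 1 with single libraries left out, against 0 with all. In the nucleus it was 0 with a pseudocount of 0.1 and with the 2 groups alone, 5 without both doubted nuclei, and 0 to 8 with single libraries left out, against 3. Between WT compartments it was 14 with quantile normalization and 20 to 26 with single libraries left out, against 23. Between Mtr4-null compartments it was 11 with a pseudocount of 0.1, 2 without a filter, 0 with the 2 groups alone, 1 with median-of-ratios scaling, 1 with quantile normalization, and 0 to 26 with single libraries left out, against 18. For this comparison, leaving out any 1 library but a WT nucleus or Mtr4-null nucleus replicate 3 left 0 to 3 calls. For the difference of genotype effects it was 1 with median-of-ratios scaling, 1 with quantile normalization, and 0 to 1 with single libraries left out, against 0. Leaving out both doubted nuclei, with 1 library left in their group, moved the members' median of this difference from 0.36 to -0.02. Over all genes it moved from 0.06 to -0.48. Between Mtr4-null compartments the members' median moved from -1.64 to -1.88, and that of all genes from -0.82 to -1.25. The share of all genes called changed with the setting too. Between Mtr4-null compartments it was 32.2% with all libraries, 64.8% without nucleus replicate 3 and 2.52% without nucleus replicate 1. Such shifts are thus not particular to the members. The cause was not tested. The cytoplasmic log2 difference of Hist1h1a, -0.07, ranged from -0.61 to 0.30 with single libraries left out, turning to 0.22 without WT cytoplasm replicate 1, 0.10 when Mtr4-null cytoplasm replicate 1 was dropped and 0.30 when replicate 3 was. Same-numbered libraries of different groups had correlated deviations of -0.16 to 0.303. The highest was that of nucleus and cytoplasm replicates 2 labelled Mtr4-null. No label says whether same-numbered libraries stem from the same oocytes, so whether they pair is unknown. With the replicate block the counts were 0, 3, 26, 24 and 0 in the order of the comparisons above.

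Nuclear libraries had larger steps than cytoplasmic ones, in the H4 genes with the same step 1.65 to 5.09 FPKM against 0.421 to 1.26 FPKM. Low nuclear values, as those of Hist1h2bh and Hist1h1t, are thus the least precise. A 0 is a value listed at 0 and not an absence.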
